A study of Mus musculus with 5 samples.

Results

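The T cells described here were chosen by their RNA in single-cell libraries of adult mouse skin. Each barcode, the tag of 1 captured droplet, needed 200 or more genes and no more than 10% of its UMIs from mitochondrial genes, where a UMI is 1 counted RNA molecule. It had to hold at least 2 UMIs of the CD3 genes Cd3d, Cd3e and Cd3g together, at least 1 UMI of Cd7 and no UMI of Icos. Barcodes with 50 or more UMIs per 10000 of the MHC class II genes H2-Aa, H2-Ab1 and Cd74, or of the keratins Krt5 and Krt14, were left out. The rule found 362 Cd7+ Icos- T cells among 26845 kept barcodes. They were part of 1024 T cells passing the Cd3, MHC class II and keratin limits, of which 487 held at least 1 Icos UMI and 175 held neither Cd7 nor Icos UMIs.

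All libraries came from skin of C57BL/6 mice, made into a suspension, sorted for live cells and captured with 10x Genomics 3' chemistry. Un-wounded skin gave 2 libraries. Wounded skin gave 3 libraries, from mice wounded at 7 weeks of age by a punch of 6 mm. The wound was collected after 4 days, using a wider punch of 10 mm. The labels give neither the age of the un-wounded mice nor whether libraries came from separate animals, so p-values measure the spread between libraries, which may be technical.

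Mouse epidermis holds a resident population of gamma delta T cells, the dendritic epidermal T cells, which are seeded before birth and sit among keratinocytes. They carry NK-type receptors, respond to stressed or damaged keratinocytes, and are known for releasing growth factors and cytokines near wounds. CD3 proteins carry the signal of the T cell receptor, CD7 is a surface protein of T and NK cells, and ICOS is a co-stimulatory receptor of activated and regulatory T cells. The dermis holds other T cells, including regulatory T cells and interleukin 17-producing gamma delta T cells. T cell receptor chain genes are not analysed here, and the position of a cell in the skin was not measured, so the cells are named by their RNA alone.

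The 5 libraries held 33537809 to 59621412 UMIs and 4152 to 7578 barcodes. The Cd7+ Icos- T cells numbered 108 and 81 in un-wounded libraries 1 and 2, and 56, 73 and 44 in wounded libraries 1, 2 and 3. Their UMIs summed to between 264607 and 343693 per library. The median depth of these cells was 2034 and 3212 UMIs in un-wounded skin, and 4855, 3794 and 3683.5 UMIs in wounded skin. The least deep of them held 1425 and 1889 UMIs in un-wounded and 2420, 2177 and 2907 UMIs in wounded skin, close to the least deep barcode of each library. The un-wounded libraries therefore reached shallower cells, and the part of this in the shares below was not tested. Of all barcodes, 816 had a sequence that another library held too. Among the Cd7+ Icos- T cells 11 did, and in no case was the other barcode also such a cell.

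The rule's own genes separated the cells from other barcodes by construction and are given as a description. Cd3g (chr9:44969572-44980431, minus strand, GRCm38) stood at 11039 and 5199 CPM, the usual measure of UMIs scaled by the library's sum, in un-wounded and at 3606, 2045 and 3273 CPM in wounded libraries, against 4 to 25.5 CPM in barcodes outside the T cell gate. Cd7 (chr11:121036747-121039418, minus strand) stood at 6234 and 3324 CPM in un-wounded and at 1950.4, 1039 and 1961 CPM in wounded libraries. Both genes were lowest in wounded library 2 and highest in un-wounded library 1. Close to the limits of the rule, 10 members had exactly 2 Cd3 UMIs and 35 otherwise passing barcodes had 1. In the same way 50 members had 1 Cd7 UMI and 175 otherwise passing T cells had none, while 49 otherwise passing barcodes were left out for a single Icos UMI. Only 7 members had keratin levels of 40 to 50 UMIs per 10000, and 1 barcode fell between 50 and 60. For MHC class II there were 3 on either side.

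Free RNA and mixed droplets can give T cell UMIs to other barcodes. Among Krt5- and Krt14-rich barcodes, 0 to 0.99% per library met both the Cd3 and the Cd7 limit, and among fibroblast-type barcodes 0.0503 to 0.623% did so, at median depths of 4932 to 11218 UMIs. The value of 0 came from 149 barcodes, which allows a share of up to 2.01%. The T cell genes that the rule did not use also marked the cells. Lck, a kinase of T cell receptor signalling, was found at 242 to 421 CPM in members and at 1.51 to 7.6 CPM in other barcodes. Cd2, an adhesion receptor of T cells, was found at 329 to 548 CPM against 2.77 to 13 CPM. Cd4 and the Cd8 genes were scarce, since Cd4 reached 5.82 to 7.56 CPM in members and only 22 of 362 held a UMI of Cd4 or of either Cd8 gene. With Cd28, Cd5 and Cd6, the list of 6 conventional T cell markers was higher in members. It summed to 115 to 268 CPM there and to 2.34 to 12.9 CPM in other barcodes. Langerhans cell markers summed to 23.3 to 214 CPM in members against 149 to 660 CPM in other barcodes, and 3 of the 5 mast cell markers (Cpa3, Mcpt4 and Tpsb2) were at 0. NK cell markers were higher in members, at 82.8, 597, 125, 611 and 246 CPM against 1.49 to 91.8 CPM in other barcodes. A UMI of Klra1, Klra4, Klra7, Klra8, Ncr1 or Klrb1c was held by 124 of 362 members. The part of NK cells among the members was not tested. Fibroblast and keratinocyte RNA was uneven: 44 members held 100 or more UMIs per 10000 of 9 such genes (7 and 11 in un-wounded, 21, 2 and 3 in wounded libraries). A doublet score marked 30 members, and removing them is among the alternatives tried.

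As a share of kept barcodes the cells made up 2.05% (exact 95% interval 1.69 to 2.47) and 1.51% (1.2 to 1.87) in un-wounded skin. In wounded skin they made up 0.745% (0.563 to 0.967), 1.6% (1.26 to 2.01) and 1.07% (0.776 to 1.43). These binomial intervals cover counting error only. Wounded library 2 lay within the un-wounded range, and the means of 1.78 ± 0.385% (SD, n = 2) and 1.14 ± 0.431% (SD, n = 3) were not separated by an exact two-sided permutation test (p = 0.3, where 0.1 is the smallest p that 10 assignments allow). With barcodes of at least 3000 UMIs only, the difference turned to 0.402 percentage points higher in wounded skin.

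Among all gated T cells the Cd7+ Icos- cells made up 71.1% and 43.3% in un-wounded skin and 51.4%, 19.6% and 21.7% in wounded skin (exact two-sided permutation p = 0.3). The difference of -26.3 percentage points went to -0.561 with barcodes of at least 3000 UMIs only. Wounded libraries 2 and 3 were the lowest, and wounded library 1 lay between the un-wounded ones. The Icos+ T cells numbered 21 and 84 in un-wounded skin and 36, 224 and 122 in wounded skin. All gated T cells numbered 152 and 187 in un-wounded skin and 109, 373 and 203 in wounded skin. Against barcodes rich in Krt5 and Krt14, the members counted 3.07 and 4.67 per 100 in un-wounded skin and 2.19, 49 and 14.5 per 100 in wounded skin (exact two-sided permutation p = 0.7). The last values move with the denominator, since keratin-rich barcodes made up 66.9% and 32.3% of un-wounded but 34%, 3.26% and 7.35% of wounded libraries. A different number of Cd7+ Icos- cells in the skin and a different recovery of them in the suspension cannot be told apart.

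**Figure D1:**
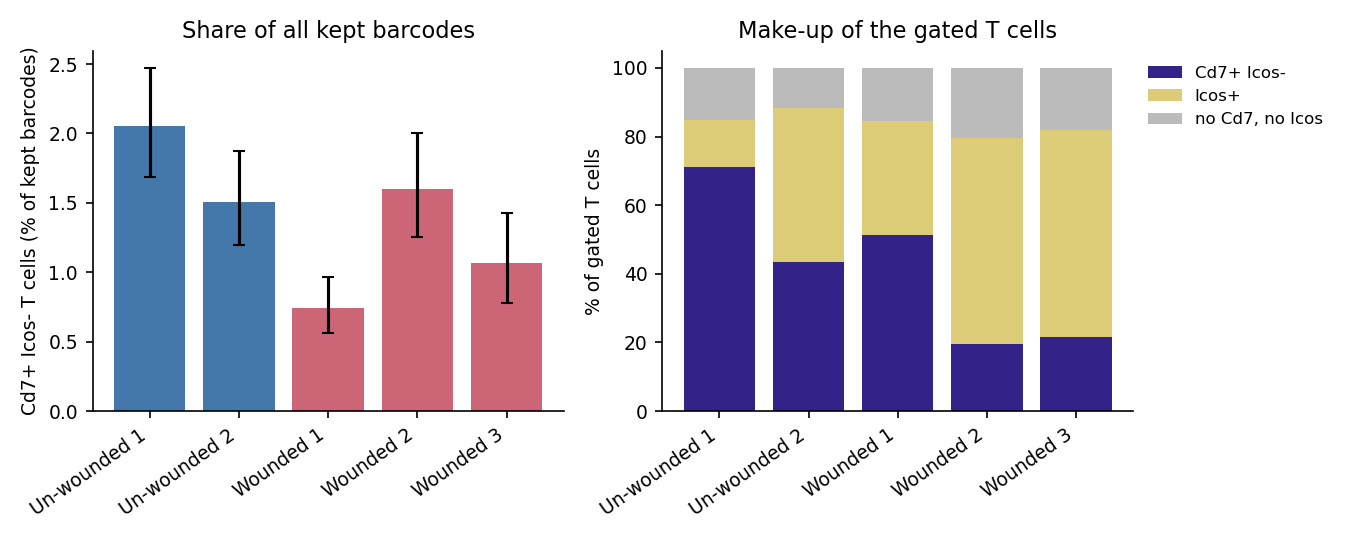
Share of Cd7+ Icos- T cells per library. Left, percent of kept barcodes with exact 95% binomial intervals (bars start at 0); right, stacked percent of gated T cells that were Cd7+ Icos-, Icos+ or without UMIs of either gene. The Cd7+ Icos- share of T cells ran from 19.6% (wounded library 2) to 71.1% (un-wounded library 1).

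The members fell into 2 ranges of Cd3 RNA. Some held 100 or more Cd3 UMIs per 10000 UMIs, and the rest held fewer, with only 13 of 362 cells between 80 and 120 per 10000. The cut at 100 was chosen after these values were seen, so the ranges are described without a test. The upper range will be called Cd3-high and the rest Cd3-low. Cd3-high cells numbered 97 and 37 in un-wounded skin and 17, 8 and 11 in wounded skin, that is 89.8% and 45.7% against 30.4%, 11% and 25% of the members. The median Cd3 level of members was 251 and 79.6 per 10000 in un-wounded skin, and 46, 25.3 and 38.9 per 10000 in wounded skin. By comparison, only 1, 1, 2, 1 and 2 Icos+ T cells of the 5 libraries reached 100 per 10000.

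The un-wounded and wounded libraries did not overlap in the Cd3-high share of all members, but depth differed between the ranges. Cd3-high cells were the shallower range in 4 of 5 libraries, with medians of 1973, 2604, 3170 and 2772.5 UMIs in un-wounded libraries 1 and 2 and wounded libraries 1 and 2, against 9262, 4189.5, 6392 and 3826 UMIs in Cd3-low cells. Under 3000 UMIs lay 94 of the 97 Cd3-high cells of un-wounded library 1 and 27 of the 37 of un-wounded library 2, but 7, 5 and 1 of those of the wounded libraries. Among members with at least 3000 UMIs, Cd3-high cells were 30% and 21.7% in un-wounded skin and 23.3%, 5.56% and 24.4% in wounded skin, and the groups overlapped. The un-wounded values were 3 of 10 and 10 of 46 cells. Such a limit also removes most Cd3-high cells of un-wounded skin, and the part of depth in the difference was not tested.

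**Figure D2:**
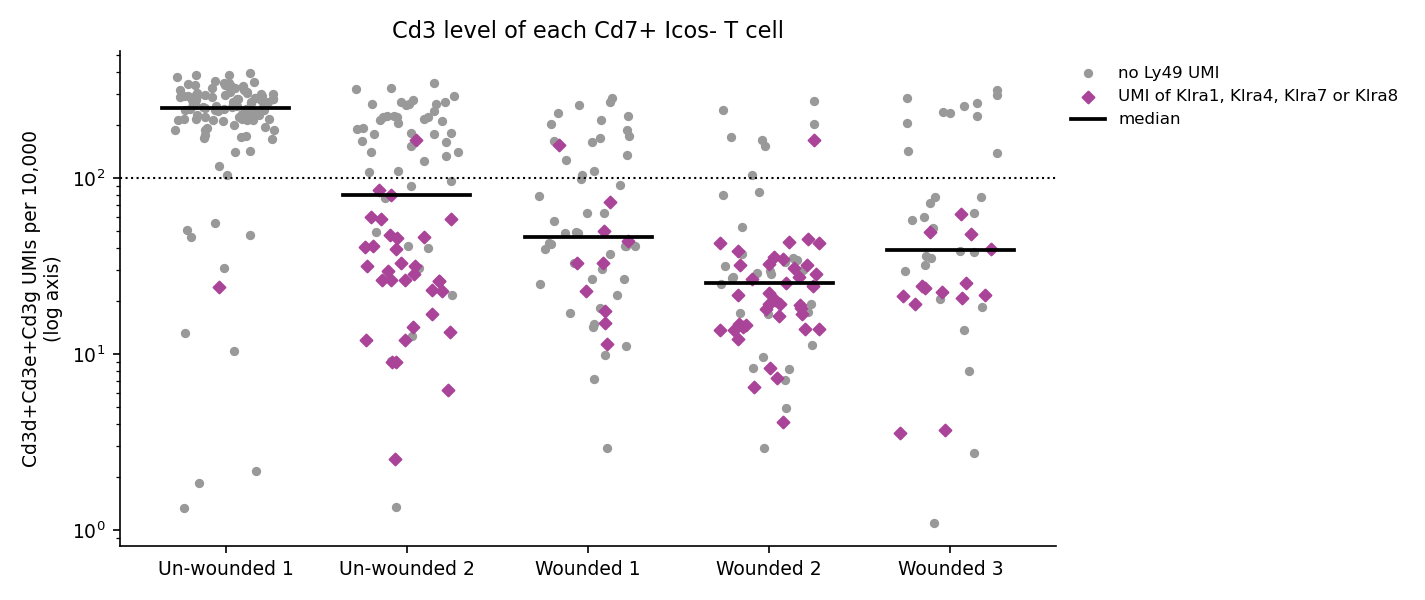
Cd3d, Cd3e and Cd3g UMIs per 10000 UMIs in each Cd7+ Icos- T cell (log axis) by library; bars are medians, the dotted line marks 100 per 10000, and diamonds are cells with a UMI of Klra1, Klra4, Klra7 or Klra8. Un-wounded library 1 has 97 of 108 cells above the line, and Ly49-positive cells lie below it in 94 cases and above it in 3.

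Apart from Cd3, the ranges differed in NK-type receptors and effector genes. Cells with a UMI of the Ly49 receptors Klra1, Klra4, Klra7 or Klra8, MHC class I receptors known from NK cells and some T cells, were 3 of 170 Cd3-high and 94 of 192 Cd3-low cells. Per library these were 0 to 12.5% of Cd3-high and 9.09 to 72.7% of Cd3-low cells. Cd3-low cells were mostly deeper, and the part of depth in this contrast was not tested. To compare libraries, members of both ranges together were also thinned to 1000 UMIs each, which left no cell out. A Ly49 UMI was then found in 0.926% and 33.3% of members in un-wounded skin and in 8.93%, 38.4% and 13.6% in wounded skin. Before thinning the shares were 0.926%, 40.7%, 17.9%, 53.4% and 31.8%. Thinned keratin-rich barcodes without Cd3 UMIs gave 0% in each library. Un-wounded library 1 thus stood apart from un-wounded library 2, and the groups overlapped.

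The Cd3-high cells held more of the T cell receptor signalling list (20 genes) in all 5 libraries, with summed levels of 6345 to 9914 CPM against 1483 to 4321 CPM in Cd3-low cells. Fcer1g, an adaptor of Fc and NK-type receptors, stood at 4216 to 5357 CPM in Cd3-high and at 389.7 to 1458 CPM in Cd3-low cells. Nkg7, a protein of cytotoxic granules, stood at 3626 to 7688 CPM against 747 to 1732 CPM. The 2 ranges did not overlap for either gene. Avil, which encodes the actin-binding protein advillin, was found at 518 to 831 CPM in Cd3-high and at 0 to 64.1 CPM in Cd3-low cells. Lag3, an inhibitory receptor, was found at 218 to 815 CPM against 12.5 to 67.8 CPM, and Rgs1, a regulator of G protein signalling, at 7502 to 9245 CPM against 476 to 2284 CPM. Cd244, Klrb1b, Klrd1, Ctsw, Itgae, Itgb7, Cxcr6 and Cd96 were also higher in Cd3-high cells in 5 of 5 libraries. The share of all genes that were higher in 5 of 5 libraries is not given here, so such counts cannot be weighed against it. Other genes of these kinds were not: Xcl1 was higher in 4 of 5, Klrk1 in 3, Gzmb in 2, and Tyrobp and Gzmc in 1. Mean levels in Cd3-high and Cd3-low cells were 112 and 323 CPM for Tyrobp, and 235 and 941 CPM for Gzmc.

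Cd3-low cells carried another set. Ccl5, a chemokine that draws T cells and monocytes, was at 0, 0, 0, 36.3 and 0 CPM in Cd3-high cells and at 21.6, 2417, 580.3, 3429 and 1109 CPM in Cd3-low cells of the 5 libraries. Ms4a4b, a membrane protein of T cells, was at 0 to 15.7 CPM in Cd3-high and at 65 to 712 CPM in Cd3-low cells. Il7r, the interleukin 7 receptor, stood at 0 to 36.3 CPM against 10.8 to 202 CPM. Ly6c2, a surface protein of memory-type T cells and monocytes, stood at 0 to 9.78 CPM against 0, 342, 169.6, 1072 and 736 CPM. The Cd3-low cells of un-wounded library 1 were 11 in number and held at most 65 CPM of each of these genes. Their keratinocyte markers summed to 51724 CPM, against 4289 CPM in the Cd3-high cells of that library, and 6 of the 11 held 100 or more fibroblast or keratinocyte UMIs per 10000. Of the 44 members with that much RNA of such cells, 42 were Cd3-low, and the part of this RNA in the differences between the ranges was not tested.

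**Figure D3:**
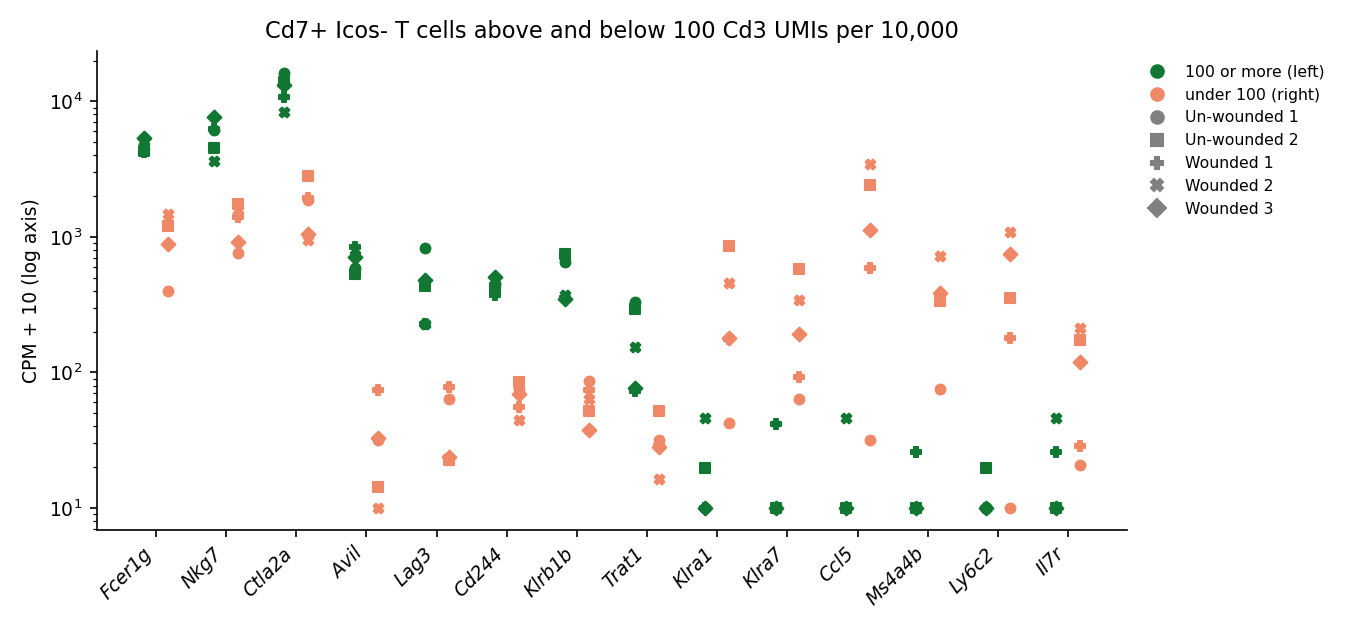
Levels (CPM + 10, log axis) of 14 genes in Cd7+ Icos- T cells with at least 100 (left of each pair) and under 100 (right) Cd3 UMIs per 10000, 1 point per library. The first 8 genes are higher in the Cd3-high cells of every library, and the last 6 are at or near 0 there, as with Ccl5 (0 in 4 libraries).

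Against Icos+ T cells of the same libraries, the Cd7+ Icos- cells held more RNA of NK-type receptors, of Fcer1g and of the chemokine Xcl1, and far less of genes known from regulatory, helper and interleukin 17-producing T cells. UMIs were summed per library and class and fitted with edgeR's quasi-likelihood test, with library as a block and the rule's genes left out. Members were higher in all 5 libraries for 9.8% of the genes and lower in all 5 for 12.6%. Of 3714 genes tested, 319 (8.59%) passed a Benjamini-Hochberg adjusted p under 0.05, 128 (3.45%) higher and 191 (5.14%) lower in Cd7+ Icos- cells. The split uses Icos and Cd7 RNA of the same cells and was proposed after clusters of them had been seen. These p-values therefore describe size against spread between libraries and give no independent support for the 2 classes. Icos+ cells needed no Cd7 UMI, and 148 of the 487 held Cd7 UMIs. The part of Cd7 in the class differences was not tested. Median depths per library ran from 2034 to 4855 UMIs in members and from 2226 to 4438 UMIs in Icos+ cells.

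Of 11 tested genes of the NK-type receptor list (16 genes), 9 passed as higher and none as lower, with a median log2 difference of 2.44 against 0.03 over all genes tested. Fcer1g (chr1:171229572-171234365, minus strand) was found at 3760.3, 2121, 1829, 1714 and 1636 CPM in members of the 5 libraries and at 131, 56.4, 356, 299 and 208 CPM in Icos+ cells. The classes did not overlap, and the log2 difference was 3.43 ± 0.4 (SE; edgeR adjusted p = 0.000719). Other barcodes held 45 to 752 CPM of it. Klrd1, the CD94 chain of NKG2 receptors, was found at 931, 588, 419, 538 and 352 CPM against 18.7, 10.7, 84.5, 85.9 and 30.3 CPM, a log2 difference of 3.53 ± 0.4 (edgeR adjusted p = 0.000699). Klrk1, the stress-ligand receptor NKG2D, was at 319 to 767 CPM against 74.7 to 207 CPM, and Cd160, an activating receptor, at 117 to 236 CPM against 18.7 to 54.3 CPM. Cd244, an NK-type receptor of the SLAM family, differed by 4.07 ± 0.53 on the log2 scale, and Kir3dl1, a killer cell immunoglobulin-like receptor, by 4.32 ± 0.45.

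Klra1, a Ly49 receptor, was at 10.3, 591, 134, 416 and 139.8 CPM in members and at 0, 43, 12.1, 48.2 and 16.5 CPM in Icos+ cells, a log2 difference of 3.33 ± 0.21 (edgeR adjusted p = 7.01e-05). It was higher in members of each library, although its level there ranged from 10.3 to 591 CPM. Ly49 genes are near-identical copies, and reads may be split between them.

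Xcl1, a chemokine for cross-presenting dendritic cells, stood at 3864, 2358, 1926, 2159 and 2838 CPM in members and at 112, 107, 199, 743 and 143 CPM in Icos+ cells, a log2 difference of 3.65 ± 0.44 (edgeR adjusted p = 0.000884). The classes did not overlap, while un-wounded and wounded members did. In cells thinned to 1000 UMIs, Xcl1 was seen in 51.8 to 88% of members per library, in 4.76 to 8.33% of Icos+ cells and in 0.162 to 0.699% of keratin-rich barcodes without Cd3 UMIs. Ccl5 also passed as higher (log2 difference 1.45 ± 0.36, edgeR adjusted p = 0.0357), a call that was lost in 4 of the 5 fits that leave out a library. It was 1.5, 1.04, 1.56 and 1.25 without un-wounded libraries 1 and 2 and wounded libraries 1 and 2 in turn (edgeR adjusted p = 0.0525, 0.102, 0.0904 and 0.12), and 1.83 without wounded library 3 (0.0222). Without members carrying a Ly49, Ncr1 or Klrb1c UMI, the log2 difference of Ccl5 was -1.25 (edgeR adjusted p = 0.346).

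In the cytotoxic granule list (18 genes), 9 genes were tested, of which 3 were higher (Nkg7, Ctsw and Gzmc) and 2 lower (Gzmb and Srgn). Nkg7 was found at 1737 to 4447 CPM in members and at 131 to 966 CPM in Icos+ cells. Ctsw, a protease of cytotoxic lymphocytes, was found at 756 to 1663 CPM against 93.3 to 338 CPM. Gzmb, granzyme B, went the other way, with 20.7, 46.8, 51.6, 172 and 223 CPM in members and 336, 532, 555, 404 and 927 CPM in Icos+ cells. Its log2 difference was -2.62 ± 0.38 (edgeR adjusted p = 0.00262). Gzmc, granzyme C, was at 79.3, 380.4, 927, 1391 and 1398 CPM in members and at 0, 5.37, 133, 941 and 12.4 CPM in Icos+ cells (log2 difference 3.61 ± 0.87, edgeR adjusted p = 0.0304). This call was lost without un-wounded library 1 or 2 or wounded library 1 or 3 (log2 differences 3.55, 3.1, 4.04 and 2.6, edgeR adjusted p = 0.0749, 0.106, 0.0827 and 0.0624) and kept without wounded library 2 (4.97, 0.0022). The 2 members with most Gzmc UMIs carried 65.2%, 70.8%, 73.8%, 88.1% and 55.1% of all Gzmc UMIs of their libraries, and without the 2 highest cells the log2 difference was 3.11 (edgeR adjusted p = 0.075). Gzmd, Gzme, Gzmf and Gzmk were at 0 in the members.

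Further genes with large differences were not receptors. Avil (chr10:127000709-127020994, plus strand) had the largest, 4.94 ± 0.5 on the log2 scale (edgeR adjusted p = 0.000409), with 400.2, 158, 213, 58.2 and 136 CPM in members and 56, 0, 12.1, 0 and 4.13 CPM in Icos+ cells. Atp1b1, the beta chain of the sodium pump, differed by 3.79 ± 0.41, Col27a1, a fibrillar collagen, by 3.66 ± 0.49, and Pltp, a phospholipid transfer protein, by 3.52 ± 0.36. Ahr, the aryl hydrocarbon receptor needed by epidermal T cells, was at 116 to 221 CPM in members and at 0 to 62.3 CPM in Icos+ cells, and was the single gene of 17 tested in the list of lymphocyte transcription factors (26 genes) to pass as higher. Cdh1, E-cadherin, was the single gene of 15 tested in the homing and residency list (23 genes) to pass as higher. Its log2 difference was 1.43 ± 0.38, with 18.9 to 69 CPM in members and 16.2 to 85 CPM in other barcodes. Of the same list, 4 genes passed as lower (Cd44, Gpr183, Cxcr6 and Ccr7). The integrin chain Itgae, at 94.2 to 331 CPM, and the retention marker Cd69, at 213 to 316 CPM, did not pass.

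**Figure D4:**
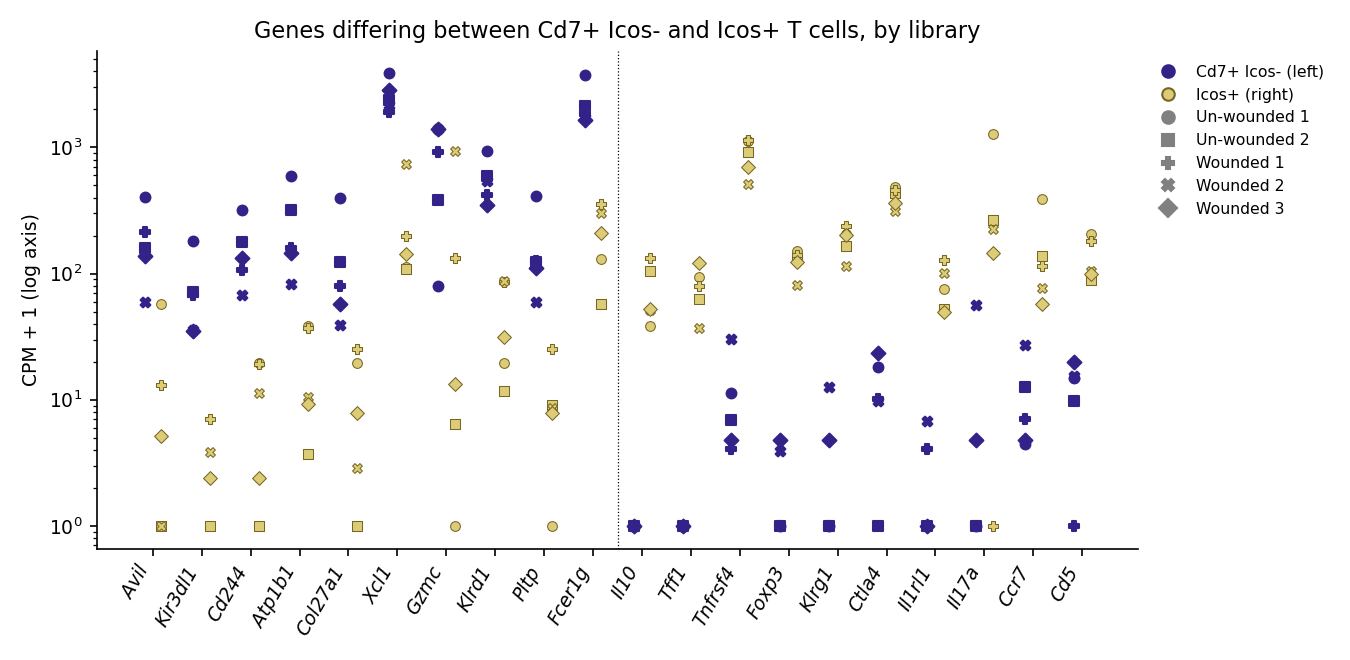
CPM + 1 (log axis) of the 10 genes with the largest higher and the 10 with the largest lower level in Cd7+ Icos- T cells (left of each pair) against Icos+ T cells (right), by library. Xcl1 is at 1926 CPM or more and Fcer1g at 1636 CPM or more in every library of Cd7+ Icos- cells, while Il10 and Tff1 had no UMI there.

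Among the genes that were lower, all 5 tested markers of regulatory T cells passed. Foxp3, their defining transcription factor, had 2 UMIs in all members and 254 in all Icos+ cells, an Icos+ level 83.9 times that of members (interval of the ratio 23 to 696, counting error only). Tnfrsf4, the co-stimulatory receptor OX40, was found at 3.04 to 29.1 CPM in members and at 516 to 1134 CPM in Icos+ cells. Ctla4, an inhibitory receptor, was found at 0 to 22.7 CPM against 311 to 485 CPM (log2 difference -5.17 ± 0.41, edgeR adjusted p = 0.000168). Neither overlapped between classes. Il10, an anti-inflammatory cytokine, and Tff1, a trefoil peptide, had no UMI in the members, which with 3 counts over all members as the floor puts them at least 33.7-fold and 36.75-fold lower than in Icos+ cells.

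Members also held less of other T cell classes' genes. Il17a was at 0, 0, 0, 55.3 and 3.78 CPM in members and at 1269, 263, 0, 224 and 145 CPM in Icos+ cells, so wounded library 1 held none in either class. Il1rl1, the interleukin 33 receptor, had 3 UMIs in all members. Cd5 and Cd6, T cell co-receptors, and Cd28, the main co-stimulatory receptor, were lower, the last at 51.6 to 135 CPM against 245 to 616 CPM. Of the 6 conventional T cell markers, 5 were lower, Cd8a being the exception (log2 difference -1.13, edgeR adjusted p = 0.16).

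The transcription factor list held 10 lower genes of 17 tested. Rora, which drives type 17 and innate-like programmes, was at 38 to 129 CPM in members and at 408 to 1008 CPM in Icos+ cells, a log2 difference of -3.12 ± 0.29 (edgeR adjusted p = 0.00034). Gata3, at 58.2 to 172 CPM against 184 to 690.5 CPM, and Id2, at 249 to 638 CPM against 653 to 1922 CPM, were also lower. In the cytokine receptor list 6 of 12 tested genes were lower and none higher, including Il7r (3.45 to 189 CPM against 231 to 392 CPM). Il2rb, the shared chain of the interleukin 2 and 15 receptors, had an adjusted p of 0.051 in edgeR, with 167 to 404 CPM in members and 148 to 173 CPM in Icos+ cells. Of 11 tested glycolysis and hypoxia genes, 5 were lower (Gapdh, Ldha, Aldoa, Ddit4 and Pkm) and none higher, while none of 16 oxidative phosphorylation and none of 10 heat shock genes passed. The calls of Gapdh (log2 difference -0.59) and Aldoa (-0.62) were each lost without un-wounded library 1 or 2 or wounded library 1 or 3, at -0.65 to -0.47 over both genes. In the activation list Rgs1, Rgs2, Btg2, Nr4a2 and Fos were higher and Junb lower, of 22 tested.

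The number of genes that differed between the classes depended on the range of members used. With Cd3-high members it was 646 of 1942 genes, with Cd3-low members 93 of 2845, and with barcodes of at least 3000 UMIs 111 of 3320. Fcer1g and Xcl1 passed in all 3, with log2 differences of 4.58, 2.58 and 3.02 for Fcer1g, while Gzmc passed only with Cd3-high members, where its log2 difference was smallest (1.84, against 4.02 with Cd3-low members and 3.64 at 3000 UMIs). Without un-wounded library 2, wounded library 1 or wounded library 3 the number was 188, 193 and 207 genes.

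Between un-wounded and wounded skin, no gene of 4486 tested in the Cd7+ Icos- cells passed (0.0% called; edgeR's quasi-likelihood test, 370 genes or 8.25% at an unadjusted p under 0.05). DESeq2 called 21 genes, 20 of them higher in wounded skin. Groups did not overlap for 28.8% of the genes, with 8.49% higher and 20.3% lower in wounded skin. Sums over all members of a library mix the make-up of the members with the RNA per cell. The members' make-up differed between libraries as described above, and its part in these values was not tested.

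The 10 genes with the smallest p at 50 CPM or more are given as values. Ifi27l2a (chr12:103442167-103443680, minus strand), an interferon-inducible gene, was at 24.1 and 11.7 CPM in un-wounded and at 462, 294 and 578 CPM in wounded libraries, a log2 difference of 4.83 ± 0.51 (edgeR adjusted p = 0.185). The groups did not overlap. Other barcodes of the same libraries moved alike, from 28.4 and 66.3 CPM to 530.3, 787 and 758 CPM, and the part of free RNA in the difference was not tested. The 2 members with most UMIs of it carried 53.3%, 27.7% and 61.4% of its UMIs in wounded libraries. Without the 2 highest cells of each gene, it was the single gene to pass (log2 difference 5.73 ± 0.44, edgeR adjusted p = 0.0229).

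Plac8, S100a9, S100a8, Wfdc17, Tnfaip2, Ms4a4c and Slpi, mostly genes of neutrophils and monocytes, were at 0 to 5.85 CPM in un-wounded and at 36.5 to 294 CPM in wounded members. S100a9 had no UMI in un-wounded members and 276, 294 and 94.5 CPM in wounded ones, while other barcodes held 143, 493 and 449.6 CPM there. The 2 members with most of it carried 89%, 71.3% and 28% of its UMIs in wounded libraries 1, 2 and 3. The 5 neutrophil markers summed to 0 CPM in un-wounded and 532, 509 and 174 CPM in wounded members, against 0.851 and 2.21 and then 316, 922 and 845 CPM in other barcodes.

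Trat1 and Map2 were the 2 genes of the 10 that were lower in wounded skin. Trat1 (chr16:48730774-48772021, minus strand), an adaptor that stabilises the T cell receptor complex, was at 224 and 114 CPM in un-wounded and at 27.3, 17.5 and 26.4 CPM in wounded members, a log2 difference of -2.59 ± 0.38 (edgeR adjusted p = 0.286). Other barcodes held at most 0.334 CPM of it. The groups did not overlap. Cd3-high cells alone had 319 and 284 CPM in un-wounded and 62.7, 145 and 67.2 CPM in wounded libraries, with a log2 difference of -2.28. With barcodes of at least 3000 UMIs the difference was -1.81 (edgeR adjusted p = 0.935). Map2, a microtubule-associated protein, had 29 and 20 UMIs in un-wounded and 5, 3 and 2 UMIs in wounded members, from sums of similar size, a log2 difference of -2.64 ± 0.47 (edgeR adjusted p = 0.402).

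Proliferation genes were the list with the most genes higher in wounded members without overlap, 11 of 15 tested (8.49% of all genes), at a median log2 difference of 1.39 against -0.03 over all genes. None passed. Stmn1, which regulates microtubules in dividing cells, was at 104 and 190.2 CPM in un-wounded and at 422, 294 and 370.4 CPM in wounded members (log2 difference 1.48 ± 0.4, edgeR adjusted p = 0.569). Of its 65 UMIs in un-wounded library 2, 57 were in 2 cells. Tubb5, a tubulin, was at 200.1 and 359.9 CPM against 577, 626 and 605 CPM. Hmgb2, a chromatin protein of cycling cells, was at 148 and 395 CPM against 835, 573 and 510.2 CPM. The groups did not overlap for these 3 genes, while in other barcodes they overlapped for Stmn1 (86.9 to 291 CPM), Tubb5 (271 to 476 CPM) and Hmgb2 (194 to 321 CPM). The summed list was higher in wounded Icos+ cells too, at 1232 and 865 CPM against 4876, 2532 and 3694 CPM.

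Within Cd3-high cells the summed proliferation list stood at 684 and 606 CPM in un-wounded and at 6348, 1450.2 and 3452 CPM in wounded libraries. In Cd3-low cells it stood at 574 and 1636 CPM against 1960, 2123 and 1936 CPM. With Cd3-high members alone, 4 of 1421 genes passed, all higher in wounded skin: 2810417H13Rik, Stmn1, Tubb5 and Tuba1b, with log2 differences of 2.17 to 5.91. This fit used 97 and 37 cells against 17 and 11, since wounded library 2 had 8 such cells and fell below the minimum of 10. Its range was chosen after values were seen, and the wounded sums rest on few cells.

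Further lists are given by counts, beside 8.49% of all genes higher and 20.3% lower without overlap. The type I interferon list had 5 of 8 tested genes higher without overlap and a median log2 difference of 1.31, with summed levels of 656 and 359.9 CPM in un-wounded and 1249, 943 and 1258 CPM in wounded members. Other barcodes went from 134 and 239.7 CPM to 1201, 1796 and 1601 CPM. The T cell receptor signalling list had 12 of 17 lower without overlap and a median of -0.48, and the NK-type receptor list 8 of 14 lower, 1 higher and a median of -0.53. Cd247, the zeta chain of CD3, was at 1266 and 521 CPM in un-wounded and 398, 154 and 253 CPM in wounded members (edgeR adjusted p = 0.569). Within Cd3-high cells it was at 1797.5 and 1428 CPM against 1223, 725 and 1076 CPM, again without overlap, and in Cd3-low cells at 130 and 134 CPM against 200, 104 and 86.4 CPM, with overlap. The part of the Cd3-high share in these list counts was not tested.

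Secreted factors known from epidermal T cells did not pass. Areg, the epidermal growth factor family member amphiregulin, was at 445 and 404 CPM in un-wounded and at 76, 157 and 185 CPM in wounded members (log2 difference -1.35 ± 0.46, edgeR adjusted p = 0.569). In un-wounded library 2, 2 cells carried 113 of its 138 UMIs, and without the 2 highest cells the log2 difference was -0.98 (edgeR adjusted p = 0.666). Il2, a T cell growth factor, had 47 and 41 UMIs against 10, 14 and 8 UMIs (log2 difference -1.81 ± 0.34, edgeR adjusted p = 0.402), and Il13, a type 2 cytokine, was at 41.4 and 102 CPM against 12.2, 8.73 and 11.3 CPM, with 22 of the 35 Il13 UMIs of un-wounded library 2 in 2 cells. The groups did not overlap for these 3 genes, all higher in un-wounded skin. Of all genes, 20.3% were lower and 8.49% higher in wounded members without overlap. In the cytokine and growth factor list (21 genes), 4 of 10 tested genes were lower and 1 was higher without overlap. The median log2 difference of that list was -0.04. Other barcodes held 11.9 to 88.4 CPM of Areg and at most 9.68 CPM of Il2. Gzmc went the other way, at 79.3 and 380.4 CPM in un-wounded and 927 to 1398 CPM in wounded members (log2 difference 2.62 ± 0.76, edgeR adjusted p = 0.569), with most UMIs in few cells as given above.

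**Figure D5:**
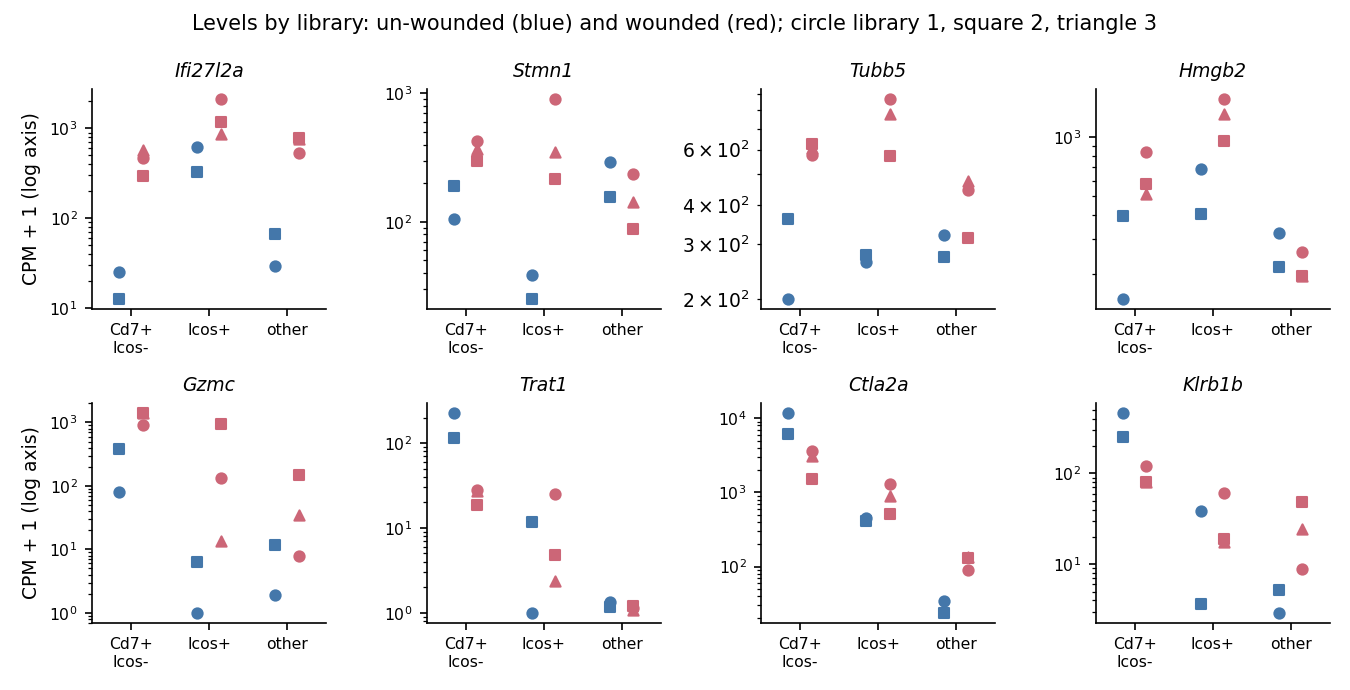
CPM + 1 (log axis) of 8 genes in Cd7+ Icos- T cells, Icos+ T cells and all other kept barcodes, 1 point per library, un-wounded in blue and wounded in red. Trat1 is at 17.5 to 27.3 CPM in wounded Cd7+ Icos- cells and is under 1 CPM in other barcodes, while Ifi27l2a is higher in the wounded libraries of all 3 sets.

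When T cells with 100 or more fibroblast or keratinocyte UMIs per 10000 were left out, 20 genes passed between un-wounded and wounded members, 17 higher and 3 lower. This alternative was added after the data were seen. The lower genes were Trat1 (-2.82 ± 0.39), Klrb1b (-1.8 ± 0.31), an inhibitory NK-type receptor, and Klf4 (-1.78 ± 0.3), a zinc finger factor, on the log2 scale (edgeR adjusted p = 0.0497 each), and other barcodes held 498.6 CPM of Klf4 on average. The higher genes included Gzmc, 3 GTPases of the immunity-associated family (Gimap3, Gimap4 and Gimap6), Sh2d1a, the SLAM adaptor SAP, and several genes that other wounded barcodes also held at high levels (S100a8, S100a9, Cxcl1, Cxcl2, Slpi and Ifitm3). Among Cd3-high cells, Gimap3 and Gimap4 were at 0 in all libraries. In Cd3-low cells Gimap4 was at 0 and 12.5 CPM in un-wounded and at 98, 272 and 141 CPM in wounded skin, and Gimap3 at 0 and 4.17 CPM against 56.5, 199 and 59.1 CPM, without overlap.

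The wound difference itself was compared between the Cd7+ Icos- and Icos+ classes by an interaction term. Of 3724 genes, 3 passed (0.0806%; edgeR, 330 genes or 8.86% at an unadjusted p under 0.05), each with a more negative wound difference in Cd7+ Icos- cells. Ctla2a (chr13:60934155-60936625, minus strand), which encodes a cysteine protease inhibitor, was at 11709 and 6121 CPM in un-wounded and at 3636, 1528 and 3088 CPM in wounded members. In Icos+ cells it was at 448 and 416 CPM and then at 1279, 514 and 892 CPM. The groups did not overlap in either class and went in opposite directions, with an interaction of -2.48 ± 0.27 on the log2 scale (edgeR adjusted p = 0.0297). Its neighbour and close copy Ctla2b (chr13:60895350-60897447, minus strand) had an interaction of -3.65 ± 0.48 (edgeR adjusted p = 0.043), and reads of the 2 genes may not be fully separable. Fcer1g had an interaction of -2.31 ± 0.28 (edgeR adjusted p = 0.0349). Keratin-rich barcodes without Cd3 UMIs, thinned to 1000 UMIs, held Fcer1g in 0.782% and 1.04% of cases in un-wounded skin. In wounded skin they did so in 2.47%, 6.29% and 4.32%. The part of free RNA in the interaction of Fcer1g was not tested. No gene passed with Cd3-high or with Cd3-low members alone, nor without wounded library 2. The interactions kept their sign there: with Cd3-high and Cd3-low members in turn they were -1.7 and -1.88 for Ctla2a, -2.8 and -3.28 for Ctla2b, and -1.85 and -1.19 for Fcer1g, the Cd3-high fit again lacking wounded library 2. With 1 library left out, they ran from -3.06 to -2.05, from -4.4 to -3.4 and from -2.49 to -2.2. Of these 3 genes, Ctla2a alone passed without un-wounded library 1 or 2, none without wounded library 1 or 2, and all 3 without wounded library 3.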

How the data were processed

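The deposited files are UMI counts per gene and barcode, 1 matrix per library. Per the submitters' processing notes the authors used Cell Ranger 1.3.1 and build mm10; the annotation is not given in the sources used here. Barcodes under 200 genes or over 10% mitochondrial UMIs were removed, and the rule for the cells was applied to the counts. The cells, gene lists and comparisons were chosen with earlier results of these data known.

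UMIs were summed per library and class for libraries with at least 10 cells, then tested by edgeR's quasi-likelihood test (edgeR 4.0.16 in R 4.3.3; low counts removed by filterByExpr, TMM scaling, Benjamini-Hochberg adjustment over all genes tested); DESeq2 1.42.0 was an alternative. The script was tested on simulated data. Printed CPM are plain, while log2 differences carry TMM scaling; standard errors are the log2 difference divided by the square root of F. Shares were compared by exact two-sided permutation over 10 assignments, with Clopper-Pearson 95% intervals (scipy 1.17.1). Doublets were the highest Scrublet scores (scanpy 1.11.5) at 0.8% per 1000 barcodes.

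Genes were named by a rule: an adjusted p under 0.05, an absolute log2 difference of 1 or more, a level of 50 CPM or more on the higher side, the same sign in every library (classes) or no overlap (wound), and a level at least that of other barcodes, leaving out mitochondrial, ribosomal, Gm-number and Rik genes and those of the rule; the 10 largest in each direction were taken from the 73 higher and 129 lower genes that passed. With fewer than 10 passing, the 10 smallest p were given. The 20 genes most concentrated in members over other barcodes and the 3 most abundant genes of each list could also be named; further genes of the lists and of the Cd3 ranges were chosen after their values were seen. Positions come from GENCODE M21 (GRCm38), matched by Ensembl ID for 27722 of 27998 IDs. A level of 0 was replaced by 3 counts where a bound is given. Alternatives were doublet removal, stricter limits, deeper cells, leaving out each library, other scaling, no filter, and the block.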

Additional observations from a re-analysis of the deposited data

Results flagged for a closer look

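The wound difference differed between Cd7+ Icos- and Icos+ T cells for 3 genes in an edgeR interaction test. The log2 wound difference in Cd7+ Icos- cells minus that in Icos+ cells was -2.48 for Ctla2a, -3.65 for Ctla2b and -2.31 for Fcer1g. Within Cd7+ Icos- cells alone, the wound differences of these genes were -1.49, -1.53 and -0.53, and none passed (edgeR adjusted p = 0.569, 0.569 and 0.706). Un-wounded library 1 entered with 21 Icos+ cells, which held 24, 1 and 7 UMIs of the 3 genes. The wound difference of Fcer1g within Cd7+ Icos- cells changed sign, to 0.46 with barcodes of at least 3000 UMIs and to 0.65 in Cd3-low members. The Cd3-high share of Cd7+ Icos- cells was 89.8% and 45.7% in un-wounded skin and 11% to 30.4% in wounded skin. With Cd3-high and Cd3-low members fitted apart, 0 genes passed in either (edgeR; 124 and 116 at an unadjusted p under 0.05), while the interactions stayed negative, at -1.7 and -1.88 for Ctla2a, -2.8 and -3.28 for Ctla2b, and -1.85 and -1.19 for Fcer1g. The part of the Cd3-high share in these interactions was not tested, nor was that of free RNA.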

How the results depend on the processing

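The wound comparison called 0 genes in edgeR, also with each library left out (0 to 0), with doublets removed, stricter limits, deeper cells or no TMM; with the replicate number as a block it called 0 (318 at an unadjusted p under 0.05). Same-numbered libraries correlated at 0.106 and 0.0961 in their deviations over 4486 genes, and the labels give no shared source. It called 21 with DESeq2, 92 without a filter, 1 without the 2 highest cells of each gene, 4 with Cd3-high members and 20 without T cells rich in fibroblast or keratinocyte RNA. The class comparison called 319 genes, 111 with cells of at least 3000 UMIs, 646 with Cd3-high and 93 with Cd3-low members, 719 without a filter, 210 with no replicate block, and 188 to 322 with a library left out. The interaction called 3 genes, 1 without Ly49- or NK receptor-positive members, 0 with Cd3-high, 0 with Cd3-low, 68 (55 higher, 13 lower) without T cells rich in fibroblast or keratinocyte RNA, and 0 to 3 with a library left out. The number of genes or cells entering differed between some of these settings, and the cause of the changes was not tested.

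The difference in the share of kept barcodes (wounded minus un-wounded, percentage points) was -0.643, ran from -0.915 to -0.37 with a library left out, and reversed to 0.402 with barcodes of at least 3000 UMIs. That in the share of T cells was -26.3, ran from -40.2 to -12.4, and was -0.561 with at least 3000 UMIs. Members per 100 keratin-rich barcodes differed by 18, and by 4.49 to 27.9 with a library left out. The Cd3-high share differed by -45.6, by -67.7 to -23.6 with a library left out, and by -8.14 with at least 3000 UMIs. Of the named genes whose difference passed, Ccl5 changed sign between the classes, to -1.25 without Ly49- or NK receptor-positive members. Wound differences that did not pass also changed sign, such as that of Xcl1 (-0.18, and 0.73 with at least 3000 UMIs) and of Fcer1g (-0.53 and 0.46). Depth limited genes under about 50 CPM, which rested on fewer than 20 UMIs per library.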

Other observations

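Wounded library 2 held 8 Cd3-high cells, whose chemokine list summed to 44921 CPM and whose neutrophil markers summed to 2647 CPM, against at most 5514 CPM and 202 CPM in the Cd3-high cells of the other libraries. These 8 cells held 27582 UMIs in all, and the doublet score marked 2 of them. Among all members of that library, 2 cells carried 497 of the 738 Ccl4 UMIs. The Cd3-high cells of all 5 libraries were also alike in some genes that no list was built on. Prox2, a homeobox factor, was at 152 to 254 CPM there and at 0 to 18.2 CPM in Cd3-low cells, Dapk2, a death-associated kinase, at 372 to 650 CPM against 0 to 66.8 CPM, and Trf, transferrin, at 224 to 580 CPM against 28.5 to 40.9 CPM.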
